A study of Mus musculus with 35 samples.

Results

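The RNA of 3 stable clones of mouse embryonic fibroblasts (MEFs) that carried the NELFB mutant MT486 was compared with that of 3 clones that carried a wild-type NELFB labelled WT(N48). The 6 libraries were taken by their labels from 35 RNA sequencing libraries, of which 15 came from clones and 20 from cell populations. All cells derived from immortalized MEFs with a null and a floxed Nelfb allele. They were given ectopic NELFB, with a flag tag according to the methods, and were infected with an adenovirus for Cre to delete the floxed allele, after which single cells were grown into clones in medium with fetal bovine serum. Each library is titled as 1 biological replicate and is taken here as 1 clone, and 3 clones a group are a small sample of what the line can give. In MT486 an asparagine-lysine-asparagine stretch is changed to alanines, and in the study the mutant protein lost its binding to NELFE. The labels put MT486 in a pLenti vector and WT(N48) in a pBabe vector with the insert named WT-ATG-NELFB, whereas the methods name a lentiviral vector throughout. N48 and ATG are not explained in the sources used here, and vector and construct cannot be told apart in this comparison. The clones labelled WT and MT194, also in pLenti, and Δ-C60, also in pBabe, serve below only to place the values.

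NELFB is a subunit of the negative elongation factor, a complex with NELFA, NELFC (the product of Nelfcd) and NELFE. The complex holds RNA polymerase II shortly after it has started a transcript, a state called promoter-proximal pausing, until the kinase P-TEFb releases it. NELFE carries an RNA-binding domain and joins the complex through NELFB. The enzymes of cholesterol synthesis are transcribed together by SREBP2, which INSIG1 keeps in the endoplasmic reticulum when sterol is plentiful. Interferon-stimulated genes are transcribed together by STAT and IRF factors, and MHC class I genes by NLRC5 and IRF1.

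In the mouse annotation (GENCODE, GRCm38, which is mm10), the only place in the Nelfb coding sequence that spells asparagine, lysine and asparagine in a row lies at chr2:25203142-25203204, on the minus strand, in exon 10 of 13. The codons themselves occupy bases 25203169 to 25203177 of chromosome 2. They are codon 488 onwards from the annotated start, which is not an ATG, and codon 437 onwards from the first ATG, and the numbering behind the name MT486 was not derived here. The stretch is shown because it is the site of the mutation, with those codons in capitals.
Nelfb: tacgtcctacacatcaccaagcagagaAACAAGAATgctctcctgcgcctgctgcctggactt

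The clones carried between 19877145 and 27816723 reads on genes. MT486 clones 1, 2 and 3 had 22770765, 19877145 and 20350422 reads, and WT(N48) clones 1, 2 and 3 had 21092518, 20296206 and 27816723. Of 24421 genes listed, 13223 had enough reads to be tested. Values below are CPM, the reads of a gene divided by those of its library on a common scale, with edgeR's scaling between libraries. They compare a gene between clones and not one gene with another, since they are not divided by transcript length.

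MT486 clones 1 and 2 stood apart from every other pair by how alike they were. Their reads differed by a chi-square of 5.15 per gene, where counting noise alone gives about 1, and 200 genes differed by over 2-fold. The next most alike pair of one group, clones 1 and 3 labelled WT, gave 32.4, WT(N48) clones 1 and 2 gave 62.7, and MT486 clones 2 and 3 gave 81.4 with 1803 genes over 2-fold apart. MT486 clones 1 and 2 differed by more than counting noise and carry separate labels, so they were kept as 2 samples. Separate cultures of 1 clone could also exceed counting noise. Whether these libraries came from separate clones was not tested, so the results are also given with them as 1 sample, which leaves MT486 with 2. WT(N48) clone 3 differed from WT(N48) clones 1 and 2 by 203 and 157, as far as the MT486 clones differed from the WT(N48) clones (117 to 196).

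**Figure D1:**
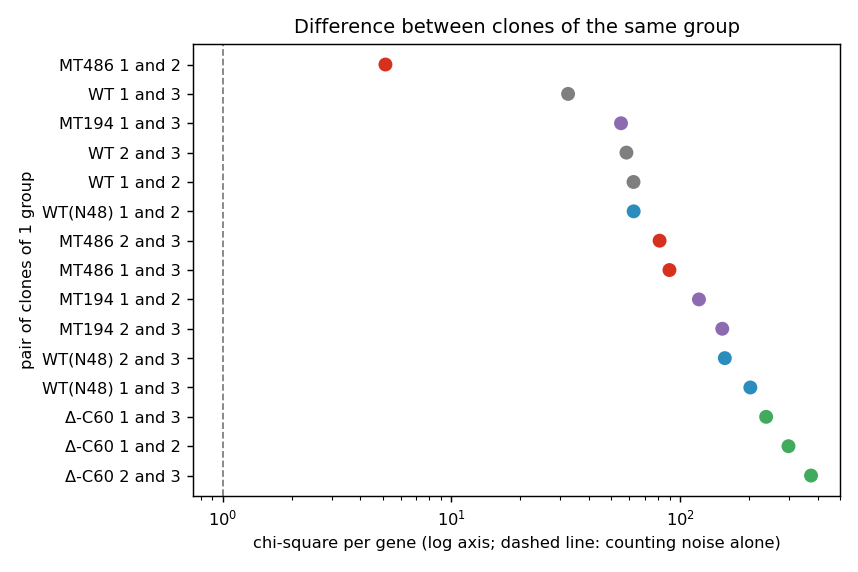
Difference between clones of the same group, as chi-square per gene on a log axis, for the 15 pairs of clones within the 5 groups. The dashed line marks what counting noise alone would give. MT486 clones 1 and 2 lie at 5.15 and every other pair at 32.4 or above.

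Nelfb itself checked the labels only in part, because reads of the ectopic and the endogenous gene fall on the same exons. Its level was 180, 158 and 135 CPM in MT486 clones 1 to 3 and 241, 127 and 56.3 CPM in WT(N48) clones 1 to 3. All 6 lay above the EV-Cre populations, which received an empty vector before Nelfb was deleted and held 7.97 and 5.46 CPM. The groups overlapped, with a log2 fold change of 0.16 (SE 0.70, adjusted p = 0.938, edgeR's quasi-likelihood test, Benjamini-Hochberg adjusted). Among the clones labelled WT, clones 1 and 3 held only 10.3 and 15.5 CPM of Nelfb and clone 2 held 109 CPM, so they are called "labelled WT" here and are not used as the reference.

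The other subunits of the complex hardly differed at the RNA level. NELFE, the partner that MT486 does not bind, had its transcript at 56.4, 56.1 and 77.8 CPM in MT486 clones and at 54.7, 59.9 and 69.2 CPM in WT(N48) clones. The log2 fold changes were 0.05 (SE 0.17) for Nelfe, -0.00 (SE 0.20) for Nelfa and -0.06 (SE 0.22) for Nelfcd, and none passed the test. Over the list of 26 genes of NELF, DSIF, P-TEFb and the super elongation complex, none was called in either direction and the median log2 fold change was -0.05, beside -0.03 over all genes tested. Lists are given throughout as counts and medians, without a test of their own. The largest differences in this one, still short of the threshold, were those of Eaf1 and Ell, which encode elongation factors, at log2 fold changes of 0.71 and 0.62.

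The cells had the RNA of fibroblasts. Of 15 fibroblast markers, 13 were tested, the list summed to between 14773 and 27389.5 CPM in the 6 clones, with the most reads on Fn1 (fibronectin) in WT(N48) clones and on Col1a1 (a collagen I chain) in MT486 clones, and only Thy1 and Lum were near 0. Epithelial markers summed to at most 30.1 CPM, nearly all of it Krt19 (29.5 CPM in WT(N48) clone 1), with Krt8, Krt14 and Epcam near 0, and hematopoietic markers to at most 4.10 CPM with Ptprc near 0. Endothelial markers summed to at most 46.2 CPM, in MT486 clone 3, where Flt1 was at 38.5 CPM against 2.35 and 2.27 CPM in MT486 clones 1 and 2, with Cldn5 and Tie1 near 0. Adipocyte markers summed to between 21.3 and 89.6 CPM, with the most reads on Fabp4 or, in clone 3 of each group, on Pparg, and with Adipoq and Plin1 near 0, and skeletal muscle markers to at most 4.95 CPM with Myod1 and Myog near 0. The neural list and the list of cartilage and bone were larger. Neural markers summed to 262, 233 and 384 CPM in MT486 clones and to 323, 278 and 212 CPM in WT(N48) clones, most of it Nes (nestin), with Sox10 and Gfap near 0. Chondrocyte and osteoblast markers summed to 369, 324 and 541 CPM in MT486 clones and to 2044, 959 and 595 CPM in WT(N48) clones, while Matn1, Bglap and Ibsp were near 0. Col2a1, the cartilage collagen, was at 144, 125 and 244 CPM in MT486 clones and at 1588, 728 and 421 CPM in WT(N48) clones, where it held most of the reads of the list. No tested member of these lists was called, and their part in the results below was not tested. In RNA of whole cultures, fewer cells of a type and less RNA per cell cannot be told apart.

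The first question was how many genes separate stable clones with a mutant that lost NELFE binding from the WT(N48) clones, which also differ in vector. By edgeR's quasi-likelihood test, with calls required to have a Benjamini-Hochberg adjusted p below 0.05 and to differ by more than 1 on the log2 scale, 36 of 13223 genes were called, or 0.272% of those tested. Of these, 13 (0.0983%) were higher and 23 (0.174%) were lower in MT486. A much larger number moved without passing the adjustment: 1040 genes were higher and 951 lower at an unadjusted p under 0.05. The 3 clones of one group lay entirely above the 3 of the other for 1828 genes (13.8%) with MT486 higher and for 1813 (13.7%) with MT486 lower. DESeq2, the tool named in the methods, called 183 higher (1.38%) and 202 lower (1.53%) on the same libraries, including all 36.

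The count depended on single clones. Without MT486 clone 1, 2 or 3 edgeR called 3, 2 and 45 genes, of which 3, 2 and 15 were among the 36, and without WT(N48) clone 1, 2 or 3 it called 9, 18 and 85, of which 9, 15 and 30 were. With MT486 clones 1 and 2 as 1 sample, edgeR called 4, Gja4 and Tinagl1 higher (0.0148%) and Agbl2 and Pde8a lower (0.0148%). DESeq2 then called 92 higher (0.683%) and 104 lower (0.772%), among them all 36. Gja4 and Tinagl1 were called in each of the 6 fits that left out 1 clone.

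The 13 genes that rose included genes for a connexin, a growth factor and a YAP/TEAD target. Gja4, which encodes connexin 37, a gap junction channel, was at 11.9, 8.92 and 22.8 CPM in MT486 clones and at 0.304, 0.30 and 0.666 CPM in WT(N48) clones. Every MT486 clone was far above every WT(N48) clone, and the log2 fold change of 5.05 (SE 0.48) had an adjusted p of 0.00112 by edgeR's quasi-likelihood test. The gene lies at chr4:127311421-127314039 in GRCm38, on the minus strand.

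Tinagl1 encodes a secreted matrix protein related to tubulointerstitial nephritis antigen. It stood at 201.4, 202 and 244 CPM in MT486 clones and at 30.7, 53.5 and 21.5 CPM in WT(N48) clones, without overlap, for a log2 fold change of 2.62 (SE 0.28, adjusted p = 0.00183, edgeR). Tgfa, a ligand of the EGF receptor, was at 9.65, 10.0 and 21.4 CPM against 0.558, 2.15 and 1.93 CPM. Errfi1, an inhibitor of the same receptor, was at 345, 394 and 373 CPM against 98.8, 144 and 147 CPM. Ligand and inhibitor rose together, by log2 fold changes of 3.13 and 1.51 (adjusted p = 0.0263 and 0.0493, edgeR), and the receptor gene Egfr, which was not called, stood at 114, 109 and 90.2 CPM against 177, 151 and 166 CPM.

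Ankrd1, a YAP/TEAD target, had the largest fold among the genes that rose, with 139, 135 and 57.0 CPM in MT486 clones against 0.710, 0.20 and 4.41 CPM in WT(N48) clones (log2 fold change 5.90, SE 0.92, adjusted p = 0.0263, edgeR). It was the only called gene of 28 YAP/TEAD targets, whose median log2 fold change was -0.18. Gstt1, a glutathione transferase of the NRF2 list, was even across the MT486 clones, at 88.5, 92.3 and 90.6 CPM, and at 2.43, 6.50 and 6.62 CPM in WT(N48) clones. Its log2 fold change was 4.12 (SE 0.58, adjusted p = 0.0119, edgeR), and it was the only called gene of 36 NRF2 antioxidant genes, with a list median of 0.02. The remaining genes that rose were Ankrd55, Pkia (an inhibitor of protein kinase A), Elovl4 (an elongase of very long fatty acids), Helz2, Dpy19l1 and Lrp10, at log2 fold changes from 1.02 (Lrp10) to 2.80 (Ankrd55).

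**Figure D2:**
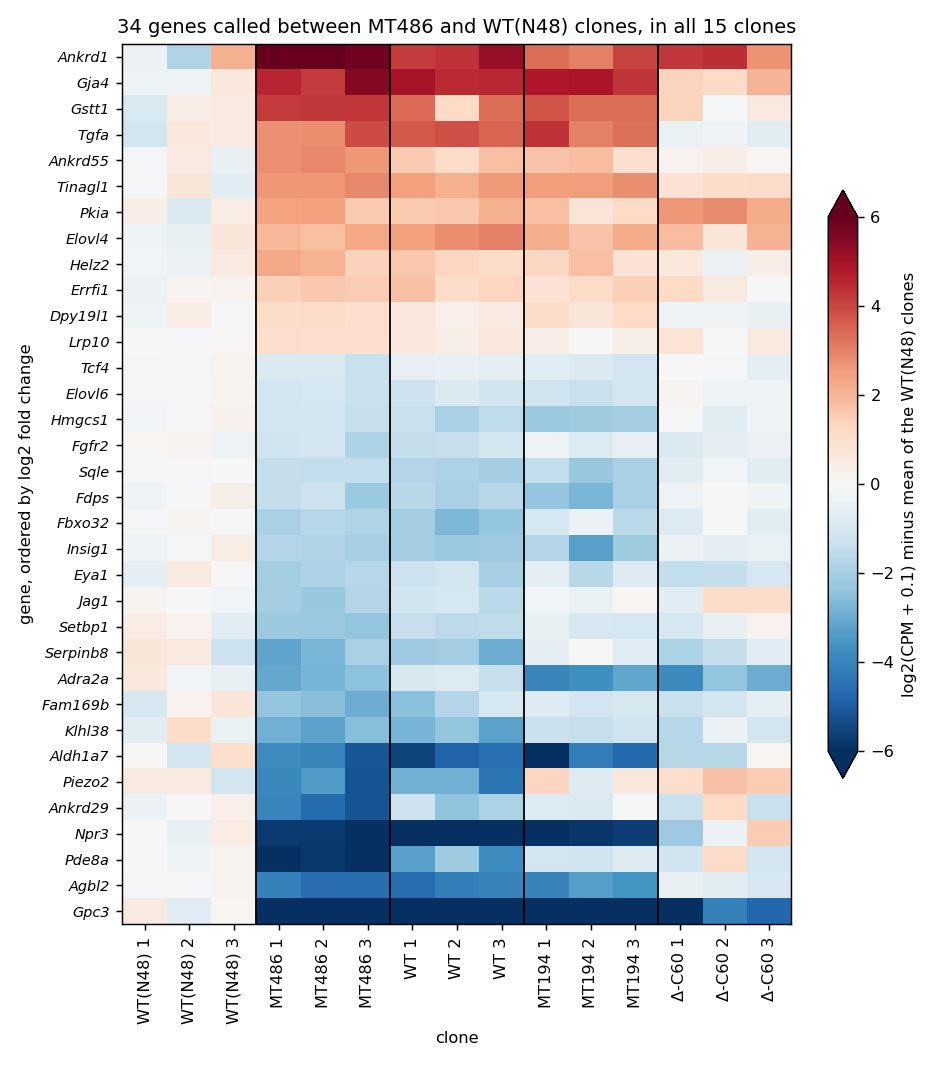
The genes called between MT486 and WT(N48) clones, 34 of 36, in all 15 clones. Colour gives log2(CPM + 0.1) minus the mean of the WT(N48) clones, with genes ordered by log2 fold change. The 12 higher genes drawn are at the top and the 22 lower genes at the bottom. The clones labelled WT and MT194 show the colours of MT486 for many rows, such as Gja4, Tgfa and Npr3, and Δ-C60 clones are nearer to WT(N48) for the sterol genes.

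The 23 genes that fell included genes of cAMP and natriuretic peptide signalling, a Notch ligand, a growth factor receptor and 5 genes of sterol synthesis, which are taken up below. Pde8a, a cAMP phosphodiesterase, was at 0.174, 0.591 and 0.414 CPM in MT486 clones and at 38.6, 32.7 and 42.7 CPM in WT(N48) clones (log2 fold change -6.59, SE 0.78, adjusted p = 0.00441, edgeR). Npr3, the clearance receptor for natriuretic peptides, was at 1.87, 1.92 and 0.138 CPM against 106, 79.7 and 144 CPM (log2 fold change -6.39, adjusted p = 0.0302, edgeR). Both were nearly off in all 3 MT486 clones and well expressed in all 3 WT(N48) clones. Agbl2, which encodes an enzyme that trims tubulin tails, had a single read over the MT486 clones and 160 over the WT(N48) clones, a 152-fold lower level with a 95% counting interval from 27 to 6057. Gpc3, a heparan sulfate proteoglycan on the X chromosome, had no read in any MT486 clone and 20.2, 8.84 and 15.4 CPM in WT(N48) clones. Set against a floor of 3 reads over the 3 MT486 clones (0.0461 CPM), it was at least 322-fold lower. It was also without a read in the clones labelled WT and MT194.

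Among the receptors and ligands, Fgfr2, a fibroblast growth factor receptor, was at 76.7, 80.6 and 49.6 CPM in MT486 clones and at 193.6, 199 and 144 CPM in WT(N48) clones (log2 fold change -1.37, adjusted p = 0.0263, edgeR). It was the only called gene of 49 in the list of PI3K-AKT and RAF-MEK-ERK kinases and receptors, whose median was -0.13. Jag1, a Notch ligand, was at 11, 9.51 and 13.5 CPM against 52.0, 46.7 and 41.9 CPM (log2 fold change -2.04, adjusted p = 0.0406, edgeR), and it was the only called gene of 15 in the Notch list, whose median was -0.41. Eya1, a developmental transcriptional coactivator, was at 10.8, 12.5 and 13.4 CPM against 30.6, 67.1 and 43.8 CPM (log2 fold change -1.95, adjusted p = 0.0364, edgeR). Each of these genes was separated between the groups, with WT(N48) clones the higher ones.

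Piezo2, a mechanically gated channel, Aldh1a7, Adra2a (an adrenergic receptor), Serpinb8, Setbp1, Tcf4, Fbxo32 (a ubiquitin ligase known from muscle atrophy), Klhl38, Ankrd29 and Fam169b also fell, at log2 fold changes from -1.01 (Tcf4) to -5.75 (Ankrd29). Setbp1, Tcf4, Piezo2 and Ankrd29 all lie on chromosome 18, a chromosome whose genes as a whole were lower (below).

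The genes of sterol synthesis and uptake formed the only list with more than 1 called member. Of 25 tested, 5 were called lower, where 0.174% of all genes were, among them Sqle, Insig1, Hmgcs1 and Fdps. Of the 25, 19 were lower at an unadjusted p under 0.05 where 7.19% of all genes were, and 23 had a log2 fold change below 0. The MT486 clones were below the WT(N48) clones without overlap for 21 of them, where 13.7% of all genes were. The median log2 fold change was -1.04. DESeq2 called 13 lower, where it called 1.53% of all genes lower, and with MT486 clones 1 and 2 as 1 sample edgeR called none of the 25 and DESeq2 called 7 lower, where it called 0.772% of all genes lower. Without MT486 clone 1, without MT486 clone 2, and in the fit without the clones labelled WT, edgeR called none of these 5.

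The called genes came from early and late steps. Hmgcs1, which makes HMG-CoA, was at 154, 155 and 131 CPM in MT486 clones and at 300, 325 and 408 CPM in WT(N48) clones (log2 fold change -1.23, SE 0.20, adjusted p = 0.0285, edgeR). Fdps, which makes farnesyl diphosphate, was at 28.5, 31.2 and 16.4 CPM against 63.0, 73.0 and 96.8 CPM (-1.61, SE 0.27, adjusted p = 0.0302, edgeR). The groups were clear of each other at both of these steps.

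Sqle, squalene epoxidase, which starts the sterol branch proper, was the steadiest of the set at 209, 200.6 and 200 CPM against 521, 591 and 575 CPM (log2 fold change -1.47, SE 0.20, adjusted p = 0.0108, edgeR). Insig1, the sterol sensor's partner that retains SREBP in the endoplasmic reticulum and is itself an SREBP target, was at 35.8, 35 and 30.9 CPM against 97.8, 112 and 168 CPM (-1.89, SE 0.30, adjusted p = 0.0263, edgeR). Later enzymes that were not called had the same sign, with Lss at -1.37, Hsd17b7 at -1.37, Cyp51 at -1.10, Dhcr7 at -1.04 and Nsdhl at -1.07 on the log2 scale. Srebf2, the gene of the pathway's transcription factor, was at 407, 398 and 350 CPM against 719, 653 and 568 CPM and did not pass the test. Ebp, a sterol isomerase, was above 0, at 0.34, and was not called. Srebf2, Ebp and the later enzymes were named after their values were seen.

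Among 15 genes of fatty acid synthesis, only Elovl6, an elongase, was called, at 97.3, 101 and 84.4 CPM against 202, 203 and 237 CPM (log2 fold change -1.18, SE 0.17, adjusted p = 0.0119, edgeR). The list median was -0.35. Scd1, a desaturase, was at 128, 126 and 155 CPM against 221, 224 and 358 CPM (log2 fold change -0.97) and Fasn, the fatty acid synthase gene that the study draws, at 604, 479 and 567 CPM against 773, 633 and 943 CPM (-0.51), both without overlap and neither called. Actb and Cdkn1a, the other 2 genes that the study draws, overlapped between the groups. Cdkn1a, the p21 gene, was at 59.7, 54.0 and 63.9 CPM in MT486 clones, while WT(N48) clones spread from 24.3 to 252 CPM.

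Promoters of the SREBP targets were read from RefSeq for the GRCm38.p6 build, over the 250 bases before each gene's start, for 9970 of the tested genes and 17 of the 25 sterol genes. The letters TCACNCCAC, a sterol response element, searched on both strands, stood in 127 of the 9970 promoters (1.27%) and in 1 of the 17, that of Hmgcs1. CCAAT, the box of NF-Y, a factor known to act beside SREBP, stood on either strand in 16 of the 17 (94.1%) and in 40.7% of the 9970. It also stood in 12 of 15 MHC class I promoters (80%), 7 of 12 of fatty acid synthesis (58.3%) and 13 of 32 of interferon-stimulated genes (40.6%). Among all called genes with a promoter read, CCAAT stood in 5 of 13 lower ones (38.5%) and in 3 of 10 higher ones (30%), no more than over the 9970. Sqle and Fdps were not among the promoters read. Insig1, also called, held neither TCACNCCAC nor CCAAT in the 150 bases before its start. The Hmgcs1 promoter at chr13:119690201-119690350 on the plus strand is shown because its gene was called and it holds both, with TCACNCCAC and, reading ATTGG on this strand, the CCAAT box in capitals.
Hmgcs1: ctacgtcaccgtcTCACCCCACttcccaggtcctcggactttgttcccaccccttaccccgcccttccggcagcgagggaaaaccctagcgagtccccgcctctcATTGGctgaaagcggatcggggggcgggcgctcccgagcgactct

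Interferon-stimulated genes gave the largest median of all 43 lists, and no member was called by edgeR. Of 43 tested, 42 had a log2 fold change above 0, 31 were higher at an unadjusted p under 0.05 where 7.87% of all genes were, 19 were higher without overlap, where 13.8% of all genes were, and the median was 2.89. DESeq2 called 20 of them higher, where it called 1.38% of all genes higher. Within MT486, the height came from clones 1 and 2. Against the mean of the WT(N48) clones, the median over the 43 genes was 3.33 and 3.65 there, but 0.59 in MT486 clone 3. It was -0.63, 0.31 and 0.30 in WT(N48) clones 1 to 3. High medians were also found in other groups, with 2.48, 0.25 and 1.51 in clones 1 to 3 labelled WT. MT194 clones were at 1.39, 3.37 and 1.17, and Δ-C60 clones at -0.01, 0.30 and -0.07. MT486 clones 1 and 2 are the pair that was so alike, and with them as 1 sample DESeq2 called 11 higher, where it called 0.683% of all genes higher.

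Bst2, which encodes tetherin, was at 167, 168 and 10.5 CPM in MT486 clones and at 3.85, 6.05 and 6.27 CPM in WT(N48) clones (log2 fold change 4.41, SE 0.92, adjusted p = 0.0676, edgeR). Rtp4 was at 38.5, 38.8 and 2.49 CPM against 0.812, 0.999 and 1.65 CPM, and Oas1b, of the oligoadenylate synthetases that sense viral RNA, at 4.26, 4.58 and 1.01 CPM against 0.0507, 0.20 and 0.455 CPM. In all 3 genes, the level in MT486 clone 3 was nearer to the WT(N48) clones than to the other 2 MT486 clones, though above them. Isg15, named here as a widely used reporter of this program after its values were seen, was at 46.2, 44.6 and 2.99 CPM against 0.456, 1.55 and 1.79 CPM.

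The 18 tested genes of MHC class I and antigen processing followed the same order of clones with a smaller gap. No member was called by edgeR, 13 were higher at an unadjusted p under 0.05 (7.87% of all genes), 13 were higher without overlap (13.8% of all genes) and DESeq2 called 8 higher (1.38% of all genes). The median was 1.53. Per clone, against the mean of the WT(N48) clones, the median over these genes was 1.89, 2.05 and 0.78 in MT486 clones 1 to 3. The clones labelled WT were at 1.77, 1.27 and 0.90, MT194 clones at 1.95, 3.16 and 1.83, and Δ-C60 clones at -0.05, 0.30 and 0.05. H2-D1, a class I heavy chain, was at 198, 212 and 87.7 CPM against 12.3, 15.3 and 31.1 CPM (log2 fold change 3.08, SE 0.59, adjusted p = 0.0546, edgeR). Nlrc5, the class I transactivator, was at 36.5, 41.1 and 11.8 CPM against 0.964, 1.25 and 4.94 CPM. Psmb8, an immunoproteasome subunit, and Tap1, the peptide transporter, were at 8.65, 9.51 and 3.45 CPM and at 28.5, 30.4 and 5.94 CPM in MT486 clones, against at most 0.771 and 3.61 CPM in WT(N48) clones. MT486 clone 3 lay between the WT(N48) clones and the other MT486 clones in each of these 4 genes.

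**Figure D3:**
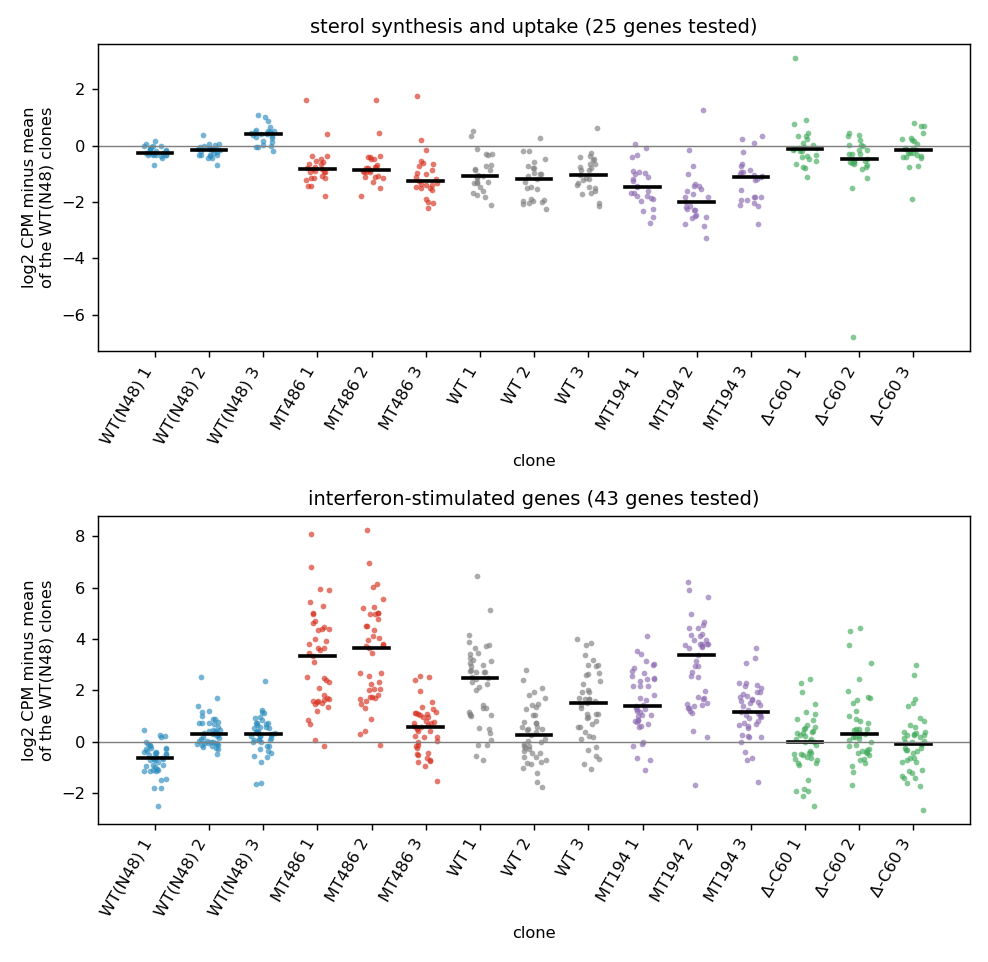
Genes of sterol synthesis and uptake (25, upper panel) and interferon-stimulated genes (43, lower panel) in all 15 clones. Each point is 1 gene, as log2 CPM minus the mean of the WT(N48) clones, and bars are medians. The sterol medians of the 3 MT486 clones are -0.82, -0.85 and -1.27. The interferon medians are high in MT486 clones 1 and 2 and 0.59 in MT486 clone 3. Those of all MT194 clones and of clones 1 and 3 labelled WT lie above that of MT486 clone 3.

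The letters of the interferon-stimulated response element, GAAA, any 2 bases and GAAA again, on either strand, stood in the promoters of 17 of 32 interferon-stimulated genes with an entry (53.1%), in 3 of 15 MHC class I genes (20%) and in 3.07% of the 9970 genes. The promoters of Bst2 at chr8:71537473-71537622 and Isg15 at chr4:156200819-156200968, both on the minus strand in GRCm38.p6, are shown as members that stand high in MT486 clones 1 and 2, with every match in capitals. Matches overlap in both, so that adjoining ones run together.
Bst2: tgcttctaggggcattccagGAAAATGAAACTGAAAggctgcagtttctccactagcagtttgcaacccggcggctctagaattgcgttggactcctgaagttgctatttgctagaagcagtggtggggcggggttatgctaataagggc
Isg15: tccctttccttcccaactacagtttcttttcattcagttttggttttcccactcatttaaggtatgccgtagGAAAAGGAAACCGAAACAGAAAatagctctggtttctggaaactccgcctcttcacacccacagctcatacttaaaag

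None of 21 imprinted growth genes was called by edgeR, while 19 were below 0 with a median of -1.18. Of these genes, 12 were lower without overlap (13.7% of all genes), 7 were lower at an unadjusted p under 0.05 (7.19% of all genes) and DESeq2 called 4 lower (1.53% of all genes). Ndn, which encodes necdin, had 1, 2 and 0 reads in MT486 clones 1 to 3 and stood at 58.0, 75.1 and 63.5 CPM in WT(N48) clones (adjusted p = 0.0705, edgeR). Igf2 was at 1.61, 1.82 and 0.506 CPM in MT486 clones and at 6.59, 7.64 and 414 CPM in WT(N48) clones, and H19 followed it at 0.348, 1.38 and 0.506 CPM against 10.5, 10.9 and 235 CPM. The levels of Igf2 and H19 in WT(N48) therefore hung on clone 3. In the other groups of clones Igf2 ran from 0.0802 CPM in Δ-C60 clone 1 to 378 CPM in MT194 clone 1.

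Matrix, contractile and Wnt genes had medians below 0 without a call by edgeR. Over all genes, 7.19% were lower at an unadjusted p under 0.05, and DESeq2 called 1.53% lower and 1.38% higher. Of 52 matrix glycoproteins and proteoglycans, 38 were below 0 and 12 lower at an unadjusted p under 0.05, with a median of -0.42, and DESeq2 called 5 lower. Lama2, a laminin chain, was at 0.391, 0.296 and 1.61 CPM in MT486 clones against 29.6, 19.7 and 6.38 CPM (log2 fold change -4.59, adjusted p = 0.055, edgeR), and Mgp, matrix Gla protein, at 190, 234 and 212 CPM against 516, 655 and 691 CPM. Of 22 smooth-muscle contractile genes, 18 were below 0 and 5 lower at an unadjusted p under 0.05, with a median of -0.76, and DESeq2 called 3 lower. Of 29 Wnt pathway genes, 20 were below 0 and 8 lower at an unadjusted p under 0.05, with a median of -0.38, and DESeq2 called 2 lower and 1 higher. Rspo2, an agonist of Wnt signalling, was at 17.4, 19.4 and 18.3 CPM in MT486 clones and at 158, 152 and 20.2 CPM in WT(N48) clones, so WT(N48) clone 3 matched the mutant clones there.

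Growth, energy and stress lists held close to the median of all genes. Cytosolic ribosomal proteins (75 tested) had a median of 0.07, oxidative phosphorylation (75) of -0.09, the citrate cycle (27) of 0.06, S phase and DNA replication (50) of 0.01, G2/M and mitosis (40) of -0.08 and fatty acid oxidation (24) of 0.03. None of their members was called, and the DESeq2 count was 0 in each. Immediate early genes (33) had a median of -0.08, ERK feedback genes (24) of -0.26, targets of Trp53 and CDK inhibitors (34) of -0.28, hypoxia and glycolysis genes (39) of 0.14, and genes of the unfolded protein and heat shock responses (28) of 0.05, without a call by edgeR.

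Some genes were present in one of these groups and all but absent in the other. Using at least 1 CPM in all 3 clones of one group and under 0.1 CPM in all 3 of the other, 5 of 24421 genes (0.0205%) were found in MT486 and not in WT(N48), and 8 (0.0328%) in WT(N48) and not in MT486. The first were Chn2, Gc, Slc17a1, Sprr1b and Sprr2e, and the second Agbl2, Gpc3, Khdrbs3, Ndn, Ptprd, Shroom2, Tmem47 and Wbscr17. None of the first 5 was under 0.1 CPM in all 3 clones of any other group, and Gc, for example, was at 7.68 and 8.87 CPM in MT194 clones 1 and 2. Of the 8, 4 were under 0.1 CPM in all 3 clones labelled WT and 2 in all 3 MT194 clones, and 4 were at 1 CPM or more in all 3 Δ-C60 clones. Sprr2e, a cornified envelope protein of epidermis, was at 14.1, 16.6 and 15 CPM in MT486 clones and reached 0.0350 CPM in WT(N48) clones, and Sprr1b was at 17.3, 17.3 and 4.42 CPM against no read. The other 9 pairs of clone groups gave from 0 to 14 such genes, against 13 for this pair, so a number of this size was found between other groups of clones too.

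Levels of whole chromosomes differed between the clones. Of 9376 genes that averaged 10 CPM or more in the 6 clones, 9053 had a single position on chromosomes 1 to 19 or X. Over these, the median log2 fold change was 0.47 on chromosome 4, 0.46 on chromosome 14 and 0.38 on chromosome 8, and it was -0.43 on chromosome 18. Of the genes on chromosome 4, 500 of 565 were above 0, as were 280 of 307 on chromosome 14 and 458 of 521 on chromosome 8. The shift was in all 3 MT486 clones. Chromosome 4 had medians of 0.50, 0.50 and 0.41 in MT486 clones 1 to 3 and of -0.04, 0.10 and -0.04 in WT(N48) clones, and chromosome 14 had 0.50, 0.48 and 0.41 against -0.00, -0.01 and 0.02. Chromosome 8 was less clean, since WT(N48) clone 3 was at 0.24 and MT486 clone 3 at 0.32.

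These 3 chromosomes held 765 of the 1281 genes at this level that were without overlap and higher in MT486, which is 54.9% of their 1393 genes against 6.74% of the 7660 genes elsewhere. The chromosomes were picked by these same values, so the shares describe them and test nothing. Chromosome 18 was lowest in MT486 clone 3, at -0.87, against -0.24 and -0.25 in MT486 clones 1 and 2, and chromosome 7 was at -0.56 in MT486 clone 3 against 0.06 and 0.04 in the other MT486 clones. Clones of other groups were also high against WT(N48). Chromosome 4 was at 0.37, 0.32 and 0.46 in the clones labelled WT, at 0.21, 0.23 and 0.60 in MT194 clones and at 0.49, 0.08 and 0.43 in Δ-C60 clones, so that all but Δ-C60 clone 2 were above every WT(N48) clone. Chromosome 8 was at 0.43, 0.52 and 0.55 in the clones labelled WT, at 0.33, 0.15 and 0.47 in MT194 clones and at 0.13, -0.58 and 0.24 in Δ-C60 clones. Chromosome 14 was at 0.49, 0.04 and 0.44 in the clones labelled WT and at 0.58 in Δ-C60 clone 1, but between -0.27 and 0.09 in the other Δ-C60 clones and MT194 clones. Chromosome 18 was below 0 in every clone labelled WT or MT194, from -0.16 to -0.55. In the populations the chromosome medians of MT486-Cre against WT-Cre ran from -0.11 to 0.09. DNA copy number was not measured, and its part in these differences was not tested. The 36 called genes lay on 15 chromosomes with at most 4 on any of them. Away from chromosomes 4, 8 and 14, the medians were -1.07 for 20 sterol genes and 2.89 for 39 interferon-stimulated genes, near those of the whole lists.

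**Figure D4:**
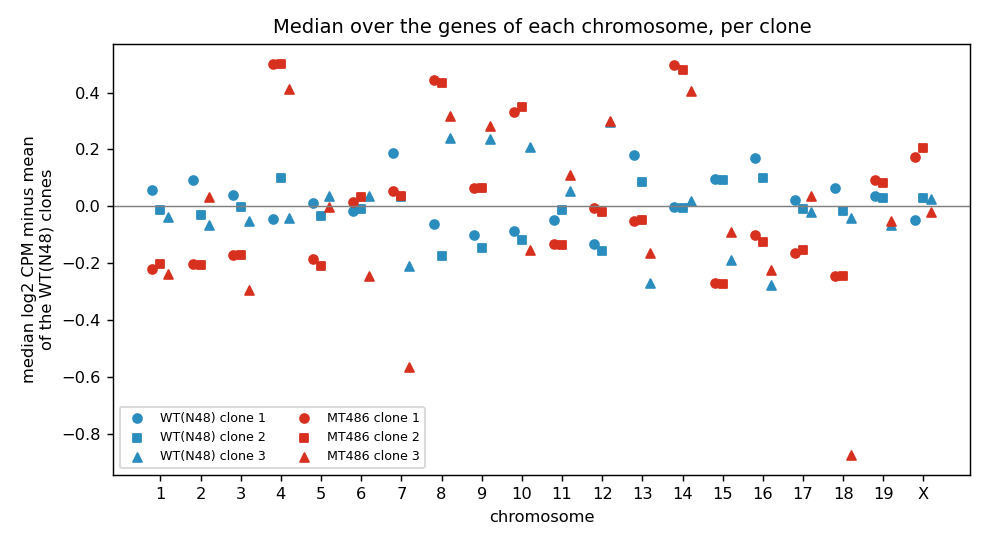
Median over the genes of each chromosome in the 6 clones, as log2 CPM minus the mean of the WT(N48) clones. Circles, squares and triangles are clones 1, 2 and 3, with MT486 in red and WT(N48) in blue. All 3 MT486 clones are above 0.3 on chromosomes 4, 8 and 14, and MT486 clone 3 is lowest on chromosome 18.

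The pLenti clones give a second setting for MT486. Against the clones labelled WT, edgeR called none of 13223 genes (0%), with 1176 at an unadjusted p under 0.05, and DESeq2 called 66 higher (0.499%) and 45 lower (0.340%). The 13 genes that rose against WT(N48) had a median log2 fold change of 2.62 there and of 0.46 against the clones labelled WT, and the 23 that fell had -2.36 and -0.19. For the sterol list the medians were -1.04 and 0.23. These comparisons share the MT486 clones, and 2 of the 3 clones labelled WT held little Nelfb RNA. Against the mean of the WT(N48) clones, the sterol medians were -1.09, -1.17 and -1.03 in clones 1 to 3 labelled WT. Clone 2, at -1.17, was the one of them with the most Nelfb RNA. The sterol medians were -1.48, -2.01 and -1.10 in MT194 clones and -0.12, -0.46 and -0.14 in Δ-C60 clones. MT194, the mutant that lost binding to NELFA and NELFC in the study, differed from the same WT(N48) clones at 429 genes (3.24%), of which 226 (1.71%) were higher and 203 (1.54%) lower, although the count was 50 without WT(N48) clone 1 and 902 without WT(N48) clone 3. The genes called for MT486 had medians there of 1.92 (the 13 higher) and -1.24 (the 23 lower). Sterol genes had a median of -1.60 with 18 of 25 called lower, and interferon-stimulated genes a median of 2.61. The WT(N48) clones are common to both comparisons, so their values enter both.

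The mutants were then compared with each other. Between MT486 and MT194 clones edgeR called 37 genes (0.280%), 19 higher (0.144%) and 18 lower (0.136%) in MT486. With MT486 clones 1 and 2 as 1 sample edgeR called none. It called none without MT194 clone 1, MT486 clone 1 or MT486 clone 2, and 155 without MT486 clone 3.

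The populations give MT486 and wild-type NELFB in one vector and without cloning, in libraries that share no sample with the clones. They were collected 7 days after the Cre virus, with 2 experiments per group. Between MT486-Cre and WT-Cre, 13 of 13805 genes (0.0942%) were called, 1 higher (Acta2, 0.00724%) and 12 lower (0.0869%). Libraries of the same experiment deviated together, and with the experiment as a block edgeR called 122 higher (0.884%) and 101 lower (0.732%). Without any 1 of the 4 libraries it called 0 or 1 gene. Over the 12974 genes tested in clones and populations, the log2 fold changes correlated across genes with a Pearson r of 0.0711 and a Spearman rho of 0.0738, and 51.7% of genes had the same sign. Genes are not independent replicates, and this describes the tables without a test.

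The sterol genes were lower in populations as well. Their median log2 fold change was -1.31 in populations beside -1.04 in clones, with Sqle and Fdps at log2 fold changes of -1.16 and -1.67. Insig1, the only gene called in both, was at 44.8 and 35 CPM in MT486-Cre and at 122 and 124 CPM in WT-Cre populations (log2 fold change -1.63, adjusted p = 0.0263, edgeR). Nsdhl and Hsd17b7 were the other sterol genes called there, at -1.60 and -1.15, where 0.0869% of all genes were called lower. With the experiment as a block 21 of the 25 were called, where 0.732% of all genes were called lower and 0.884% higher.

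Fatty acid synthesis genes had a median of -0.66 in populations beside -0.35 in clones. Scd1 was called lower there, at 99.9 and 105 CPM in MT486-Cre and at 237 and 295 CPM in WT-Cre populations (log2 fold change -1.38, adjusted p = 0.0411, edgeR), and Elovl6, called in the clones, was at -0.91 and was not called.

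Some lists had medians nearer 0 or of the opposite sign in populations. The median was -0.02 for interferon-stimulated genes, -0.00 for MHC class I, -0.23 for imprinted growth genes and 0.65 for smooth-muscle contractile genes, against 2.89, 1.53, -1.18 and -0.76 in the clones. Of the 13 genes that rose in the clones, 9 had the same sign in populations and none was called, and of the 23 that fell, 19 had the same sign and Insig1 was called.

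The difference between the clone effect and the population effect was tested in one model over all 35 libraries and 14230 genes. It was called for 15 genes (0.105%), 8 higher (0.0562%) and 7 lower (0.0492%) in the clones, and for 43 with the experiment as a block within the populations. The count ran from 5, without either MT486-Cre library, to 84 without MT486 clone 3 and 148 without WT(N48) clone 3. Among the 15 were Gja4, Gstt1, Ankrd1, Ankrd55 and Tinagl1, which rose in the clones by more than in populations, and Agbl2, Pde8a, Gpc3, Setbp1, Aldh1a7 and Ankrd29, which fell by more. Gstt1 had log2 fold changes of 4.12 in clones and -0.15 in populations, Pde8a of -6.59 and 0.27, and Tinagl1 of 2.62 and -0.06. No sterol gene was among the 15. Insig1 differed by -0.24 between clones and populations on the log2 scale and did not pass the test of the difference.

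**Figure D5:**
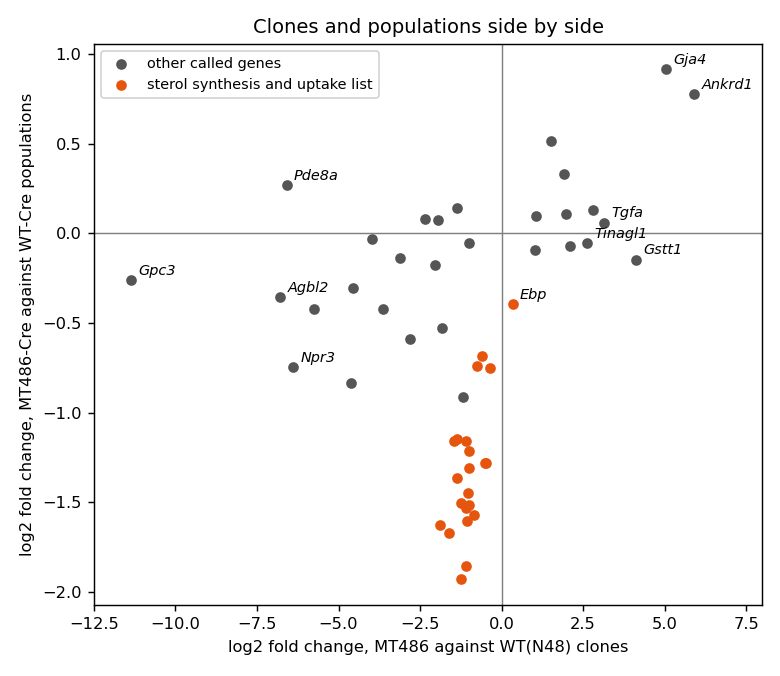
Log2 fold change of MT486 against WT(N48) in clones (x axis) and of MT486-Cre against WT-Cre in populations (y axis). Orange points are 22 of the 25 sterol genes and grey points other called genes. All orange points but Ebp are below 0 on both axes, whereas Gja4, Gstt1, Pde8a and Agbl2 are far from 0 in clones and between -1 and 1 in populations.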

How the data were processed

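RNA was sequenced from stranded poly(A) libraries as single 50-base reads. Per the labels and methods, the authors aligned reads to mm10 with Bowtie2, skipped alignments with a mapping quality below 30, counted reads per gene with HTSeq and used DESeq2, all without versions in the sources used here. The deposited files hold raw counts for 24421 genes in each library. Rows for reads outside genes (9.82% to 10.7% of the count table in the 6 clones) and ambiguous reads (1.04% to 1.13%) were left out.

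From these counts, edgeR 4.0.16 in R 4.3.3 (filterByExpr, TMM scaling, robust quasi-likelihood fit over all 15 clones) tested MT486 against WT(N48), with p-values adjusted by Benjamini-Hochberg over 13223 genes. Calls needed an adjusted p below 0.05 and a difference of more than 1 on the log2 scale. DESeq2 1.42.0 was the alternative. Populations were fitted apart (20 libraries), and the difference between clone and population effects over all 35. Tables and figures were made with Python 3.11.15, pandas 2.3.3 and matplotlib 3.10.9. On simulated counts for 13103 genes edgeR recovered 78% of 200 changed genes with 6 false calls, and DESeq2 89% with 47. The simulation drew every clone independently around a common mean per gene, and all changes set were larger than the threshold for a call. It held neither the likeness of MT486 clones 1 and 2 nor the shifts of whole chromosomes. Its recovery and false calls therefore need not apply to these data. Population libraries of equal replicate number deviated together (90 of 90 pairs had a correlation over 0.1), as the study's 2 experiments would have it. P-values measure only the spread between clones of 1 line.

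The genes named are the NELF subunits, 3 genes the study draws, the 12 called genes of largest change in each direction with a mean of at least 50 reads and no overlap, up to 4 genes of each list, and genes called in populations too. Other genes in the text were named after their values were seen. Some genes that the rule takes in are not reported here. The comparison and the 43 gene lists were chosen with earlier results of these data known.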

Additional observations from a re-analysis of the deposited data

Results flagged for a closer look

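The effect of MT486 differed between clones and populations for 15 genes by edgeR's quasi-likelihood test of the difference itself. On the log2 scale, the clone effect minus the population effect was 5.14 for Ankrd1, 4.29 for Gstt1, 4.16 for Gja4, 2.71 for Ankrd55 and 2.71 for Tinagl1. It was -6.83 for Pde8a, -4.22 for Aldh1a7, -2.41 for Setbp1 and -11.02 for Gpc3, whose fitted value depends on the prior count because no MT486 clone had a read. The wild-type arm also differs, being WT(N48) in pBabe for the clones and WT in pLenti for the populations, so vector, cloning and time in culture cannot be told apart.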

How the results depend on the processing

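Single clones and the choice of tool set the counts of called genes more than scaling or filtering did. For MT486 against WT(N48) clones, 36 genes were called, 36 with DESeq2's size factors, 38 without a filter on low counts, 44 from the 6 libraries alone (18 of them among the 36), 385 with DESeq2, 6 without the clones labelled WT, and 2 to 85 when 1 clone was left out. With MT486 clones 1 and 2 as 1 sample, an alternative chosen after seeing the data, edgeR called 4 and DESeq2 196. The fit of the 6 libraries alone tested fewer genes (12518), and 35 of the 36 were found there with the same sign. In every other of these fits all 36 kept their sign. Against the clones labelled WT, edgeR called 0, DESeq2 111, and edgeR 1 without the filter and 0 to 13 with 1 clone left out. MT194 against WT(N48) gave 429, 878 with DESeq2 and 50 to 902 with 1 clone left out. MT486 against MT194 gave 37, 390 with DESeq2, 0 with MT486 clones 1 and 2 as 1 sample and 0 to 155 with 1 clone left out. The populations gave 13, 78 with DESeq2 and 0 to 1 with 1 library left out, and the test of clone against population effect gave 15, 161 with DESeq2 and 5 to 148. Genes present in one of MT486 and WT(N48) and absent in the other were 13, and 24 with presence set at 0.5 CPM. The cause of these differences was not tested.

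The replicate number of the clones, used as a replicate block, gave 19 called genes, 17 of them among the 36. Same-numbered MT486 and WT(N48) clones correlated at 0.0621 to 0.291, over 0.1 in 2 of 3 pairs, which are too few to settle whether the numbers pair these clones. Over all groups of clones, 4 of 30 same-numbered pairs were over 0.1, with a median of -0.02. The main test therefore did not pair the clones by number. In the populations, where numbers mark experiments, the block raised the count from 13 to 223, and in the test of clone against population effect from 15 to 43.

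NELF subunits near 0 changed sign. With 1 clone left out, Nelfb ran from -0.20 (without WT(N48) clone 3) to 0.78, Nelfcd from -0.19 to 0.065 and Nelfe from -0.10 to 0.17. Nelfa went to 0.00056 with DESeq2 and with its size factors, 0.013 without the filter, 0.017 for the 6 libraries alone and without the clones labelled WT, 0.075 and 0.055 with MT486 clones 1 and 2 as 1 sample (edgeR and DESeq2), and ran from -0.10 to 0.076 with 1 clone left out. Nelfcd went to 0.031 and 0.011 with those clones as 1 sample.

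At 19877145 to 27816723 reads per clone, genes near the lower limit of the test rest on few reads, and 3 clones a group cannot give an exact permutation p under 0.10 for a single gene.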
